A study of Mus musculus with 6 samples.

Results

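The genes described here run the unfolded protein response and the folding machinery of the endoplasmic reticulum (ER), the compartment in which secreted and membrane proteins are made. The list holds 38 gene symbols out of 19938 genes measured. It comprises 7 stress sensors and transcription factors, 11 chaperones and their partners, 5 protein disulfide isomerases, 9 genes of ER-associated degradation and 6 genes of translocation and vesicle export. Each gene was read from the probe set that carried its symbol alone and had the highest mean over the 6 arrays, and these means are a description of how the probe sets were picked. All 38 had such a probe set, and all 38 lay above a background level of 6.83 on the log2 scale, the 95th percentile of 1027 olfactory receptor genes, taken as silent here.

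The cells were bone marrow stromal cells, the adherent marrow cells that can become osteoblasts or adipocytes, from C57BL/6 mice aged 6 months. A group of 3 cultures came from wild-type mice (WT) and a group of 3 from mice knocked out for the microRNA gene miR-188 (KO). Both groups grew in the same adipogenic medium with 10% fetal calf serum, the phosphodiesterase inhibitor 3-isobutyl-1-methylxanthine at 0.5 mM, insulin at 5 µg/ml and the glucocorticoid dexamethasone at 1 µM. Each culture was hybridised to its own Affymetrix array, and the series asks how miR-188 bears on the choice between the osteoblast and adipocyte fates. The labels call the cultures biological replicates but do not say whether those of a group came from separate mice. If they did not, the p-values leave out the spread between mice. The sources used here state neither the extent of the deletion nor how long adipogenesis was induced.

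When unfolded proteins gather in the ER, the membrane sensors IRE1 (Ern1), ATF6 and PERK (Eif2ak3) are released from the chaperone BiP (Hspa5) and activated. IRE1 splices the messenger RNA of Xbp1 into the template of an active transcription factor, ATF6 is cut in the Golgi to free its own, and PERK slows translation while favouring ATF4. These factors raise chaperones, isomerases and the machinery that returns misfolded proteins to the cytosol for destruction. Bone marrow stromal cells secrete large amounts of collagen, which makes folding capacity a standing need of the cell type.

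The stress factors ATF6 and XBP1 act on short promoter elements, which are shown because they tie genes of the list to a common control. The ER stress response element (ERSE) is CCAAT and CCACG with 9 free bases between them, and its shorter relative ERSE-II is ATTGG and CCACG with 1 free base between them. Both strands were searched from 250 bases before to 50 bases after each start in the RefSeq promoter windows of GRCm38.p6, which covered 32 of the 38 genes. An exact ERSE lay in the windows of 9 of these 32 genes (28.1%), against 0.137% of all 27025 genes with a window. ERSE-II lay in those of Herpud1 and Dnajb11 (6.25%, against 0.0444%). The UPRE, an XBP1 element searched as TGACG followed directly by TGG, lay in that of Sec24d (3.12%, against 0.714%). No gene of the list held exact matches to more than 1 of these 3 elements, and near matches were not counted. The element was defined on genes of this kind, so this is a description of the list and not evidence about the arrays. The sites follow, read 5′ to 3′ on the strand that carries them, with the fixed letters of the element in capitals and its free positions in lower case. Hsp90b1 had a pair of sites, of which the nearer to its start is shown.
Hspa5 (chr2:34772025-34772043, plus strand): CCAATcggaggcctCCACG
Hsp90b1 (chr10:86705533-86705551, plus strand): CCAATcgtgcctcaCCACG
Calr (chr8:84847075-84847093, plus strand): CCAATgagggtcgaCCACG
Canx (chr11:50325800-50325818, minus strand): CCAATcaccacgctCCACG
Dnajc3 (chr14:118937827-118937845, plus strand): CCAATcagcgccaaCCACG
Creld2 (chr15:88819520-88819538, minus strand): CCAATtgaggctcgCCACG
Pdia6 (chr12:17266491-17266509, plus strand): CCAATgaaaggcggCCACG
Derl3 (chr10:75893242-75893260, minus strand): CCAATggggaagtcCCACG
Syvn1 (chr19:6046532-6046550, plus strand): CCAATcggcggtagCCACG
Herpud1 (chr8:94386377-94386387, plus strand): ATTGGgCCACG
Dnajb11 (chr16:22857852-22857862, plus strand): ATTGGcCCACG

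The promoter of Hspa5, the textbook target of ATF6, and that of Herpud1, whose level was higher in KO as given below, are printed for comparison. Each is the run of 250 bases that ends just before the RefSeq start, 5′ to 3′, with the fixed letters of ERSE or ERSE-II in capitals. The Hspa5 run spans chr2:34771840-34772089 on the plus strand of GRCm38.p6, and its element lies 65 to 47 bases before the start. The Herpud1 run spans chr8:94386179-94386428 on the plus strand, and its element lies 52 to 42 bases before the start.
Hspa5: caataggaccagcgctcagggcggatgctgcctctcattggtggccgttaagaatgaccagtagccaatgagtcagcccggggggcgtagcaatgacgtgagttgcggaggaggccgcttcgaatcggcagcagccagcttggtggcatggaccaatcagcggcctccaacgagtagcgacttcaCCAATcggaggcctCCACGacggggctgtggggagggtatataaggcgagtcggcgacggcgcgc
Herpud1: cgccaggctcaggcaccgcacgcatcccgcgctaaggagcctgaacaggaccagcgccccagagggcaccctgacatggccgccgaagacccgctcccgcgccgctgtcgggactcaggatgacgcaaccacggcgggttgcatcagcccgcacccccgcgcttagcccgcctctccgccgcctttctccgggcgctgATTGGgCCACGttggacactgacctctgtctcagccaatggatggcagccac

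Across arrays, values of all probe sets correlated at 0.994 to 0.997 within a genotype and at 0.991 to 0.995 between genotypes. Of 10 stromal markers 9 lay above background, with the exception of Lepr, and the pan-leukocyte gene Ptprc lay below it. Of 5 measured adipocyte markers 3 lay above the background of 6.83, Plin1 at 7.54, Cidec at 7.21 and Retn at 6.87. Adipoq, the adiponectin gene, did not. Among 8 macrophage markers only Cd68, also a lysosomal gene of other cells, was above background, and it fell by 0.19 in KO. The summed linear level of those 8 was 2538 to 2570 in WT and 2291 to 2307 in KO, a sum made up mostly of Cd68, while 5 of the 8 differences were above 0 and the median was 0.03. Of the stromal markers, the collagen genes Col1a1 and Col3a1, clients of the ER folding machinery, fell by 0.28 and 0.35 and Nt5e by 0.28, while the receptors Pdgfra and Pdgfrb rose by 0.26 and 0.14. The summed level of the stromal markers was 11560 to 11750 in WT and 10610 to 11040 in KO, with Col1a1 the brightest at a level of 12.29. Among the 10 stromal differences 4 were above 0, with a median of -0.01. Of 5 endothelial markers 2 lay just above background: Kdr, at a level of 6.99, fell by 0.29 and Cdh5, at 6.93, differed by 0.04. Among the 5 differences 2 were above 0, with a median of -0.04. The endothelial sums were 452.3 to 473.7 in WT and 421.6 to 451.4 in KO. Of 4 osteoclast markers 2 lay above background: Ctsk rose by 0.16 and Acp5 differed by -0.07. Among the 4 differences 2 were above 0, with a median of -0.03. The osteoclast sums, made up mostly of Ctsk, were 1192 to 1230 in WT and 1274 to 1325 in KO. Of 6 measured B and plasma cell markers 3 lay above background and none was called. Their sums were 2235 to 2323 in WT and 2337 to 2474 in KO, made up mostly of Sdc1, which differed by 0.10. Among the 6 differences 4 were above 0, with a median of 0.02. The adipocyte sums overlapped, at 550.6 to 589.4 and 552 to 567.7. The part of these markers in the results was not tested.

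KO cultures had higher Xbp1 and Herpud1 and lower Serp1, Edem3, Pdia5, Edem1 and Derl1, and none of the 11 chaperones and partners passed the test, with a class median of -0.10. Of the 38 genes, 2 rose and 5 fell, and the remaining 31 missed the threshold (limma, adjusted p under 0.05 over all genes). Among all 19938 genes 3.34% were called higher and 3.97% lower. The 38 genes are brighter than most: of the 5207 genes with a mean level above 9, a limit chosen after the values were seen, 7.11% were called higher and 9.91% lower. On the list the shares were 5.26% higher and 13.2% lower, so the calls lie near those of genes above that level. That set was not matched to the list in brightness. In bulk cultures, fewer cells of a type and less RNA per cell cannot be told apart.

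**Figure D1:**
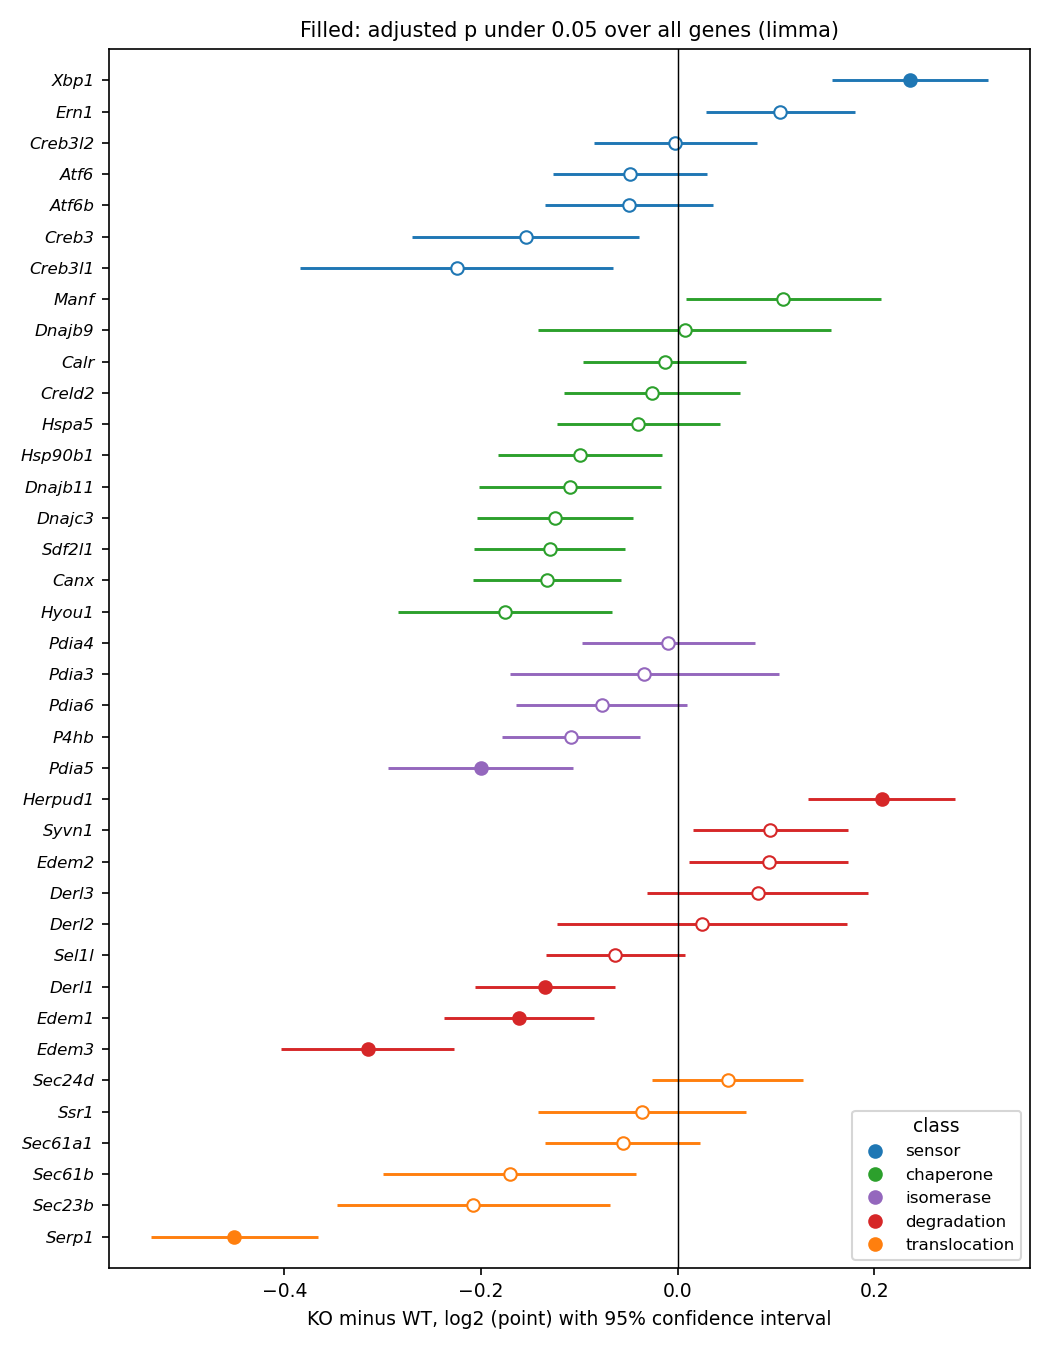
KO minus WT on the log2 scale for the 38 genes, grouped by class and ordered by size, with 95% confidence intervals from limma; filled points passed the test over all genes. Serp1 lies at -0.45 and Xbp1 at 0.24, and the confidence interval of Hspa5 includes 0.

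The counts moved with the arrays and the scaling, as they did for all genes. Without WT replicate 3 none of the 38 genes was called higher and 1, Serp1, lower, where 0.547% and 0.401% of all genes were called. Without KO replicate 3 the counts were 1 and 2 (1.51% and 1.55% of all genes). The counts were 2 and 2 when WT replicate 1 (1.37% and 1.11%), WT replicate 2 (2.05% and 2.63%) or KO replicate 1 (1.96% and 2.17%) was left out, and 2 and 3 when KO replicate 2 was (2.18% and 1.98%). Quantile normalization gave 3 higher, with Ern1 added, and 2 lower (4.32% and 3.2% of all genes), and cyclic loess the same counts (4.31% and 3.35%). A common median gave 2 and 3 (3% and 2.89%). Testing only genes above background gave 2 and 11 (7.37% and 9.37%), a trended robust variance 3 and 13 (4.87% and 6.55%), array weights 5 and 15 (8.04% and 9.1%) and averaged probe sets 2 and 5 (3.28% and 3.93%). Canx, Hyou1, Dnajc3, Sdf2l1, P4hb and Sec23b were among the genes called lower in the filtered, trended and weighted fits.

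**Figure D2:**
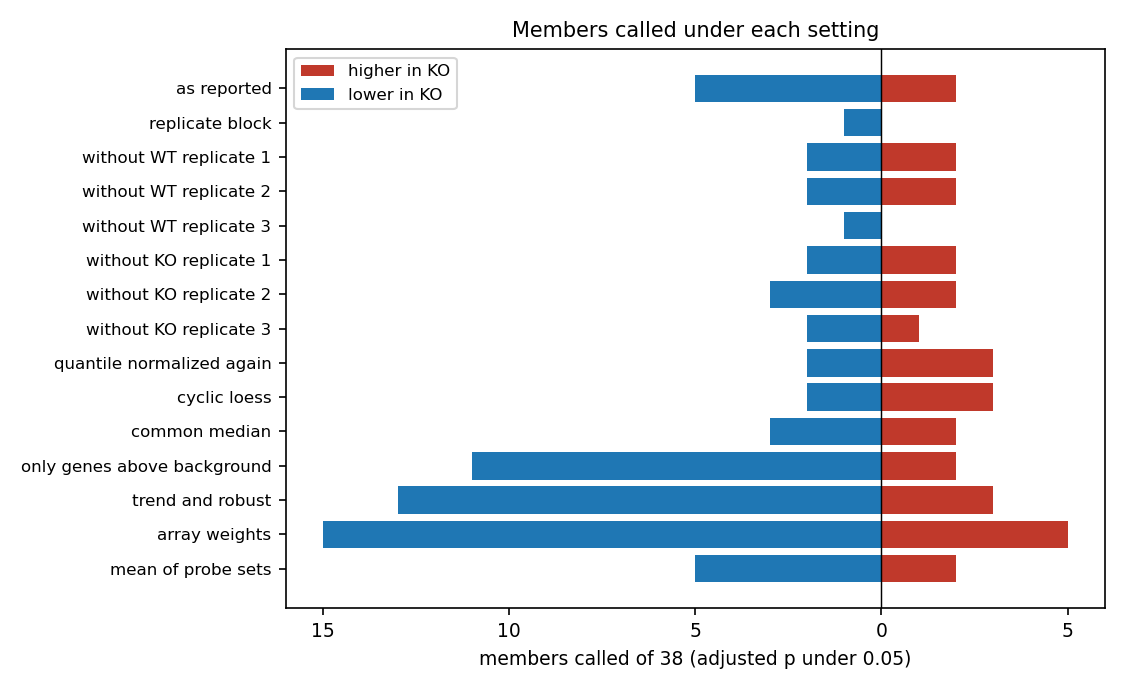
Number of the 38 genes called higher in KO (right of 0) and lower in KO (left of 0), at an adjusted p under 0.05, as reported and under each of 14 alternative settings. Lower calls range from 1 to 15 and higher calls from 0 to 5.

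The typical difference was small and negative. The median KO minus WT over the 38 genes was -0.05, against 0.0046 over all genes and -0.03 over those above a level of 9. Differences were below 0 for 28 of the 38 genes (73.7%), for 47.6% of all genes and for 61.3% of the brighter ones. All 3 KO values lay below all 3 WT values for 20 genes (52.6%), beside 13.5% of all genes and 32.6% of the brighter ones. All 3 KO values lay above for 7 genes (18.4%), beside 11.4% and 19.3%. After quantile normalization the median of the list was -0.03, with 22 genes below 0, and after cyclic loess it was -0.02, with 21. By array, the mean deviation of the 38 genes from their WT means was 0.01, -0.02 and 0.0052 in WT and -0.06, -0.06 and -0.06 in KO. The 3 KO arrays thus lay close together and below each WT array.

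Among sensors and their transcription factors, Xbp1 rose and no other gene passed the test. Xbp1, the target of IRE1, had values of 11.06 in each of the 3 WT arrays and 11.30, 11.33 and 11.25 in KO. Every KO array was higher than every WT array. The difference was 0.24 (SE 0.03, adjusted p = 0.0110, limma), 1.18-fold, and the WT values were exactly tied, as the summarising step of the arrays can produce, so their SD of 0 is no measure of precision. Leaving out WT replicate 3 ended the call, at an adjusted p of 0.0694. The probe set gives 1 value for the gene, so spliced and unspliced Xbp1 were not told apart.

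Ern1, which encodes IRE1 itself, had 10.46, 10.42 and 10.40 in WT and 10.55, 10.53 and 10.52 in KO. The groups did not overlap, but the difference of 0.10 (95% confidence interval 0.03 to 0.18, adjusted p = 0.111) did not pass the test, though it did after quantile or cyclic loess normalization. Atf6 had 10.59, 10.62 and 10.59 in WT and 10.58, 10.56 and 10.51 in KO, a difference of -0.05 (interval -0.13 to 0.03, adjusted p = 0.486). Its relative Atf6b differed by -0.05 with overlapping groups. Creb3l1, a membrane-bound factor of the CREB3 family that drives collagen genes in osteoblasts, differed by -0.22 (interval -0.38 to -0.07, adjusted p = 0.106). For Creb3 the difference was -0.15 (adjusted p = 0.120), and for Creb3l2, a factor for export genes in cartilage, it was -0.0021 (interval -0.09 to 0.08). Counted together, 1 of the 7 rose (14.3%) and none fell, beside 3.34% and 3.97% of all genes. Among genes above a level of 9 the shares were 7.11% and 9.91%. The median was -0.05, a value that went to -0.0067 after quantile normalization.

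None of the 11 chaperones and chaperone partners passed the test, and 7 had an unadjusted p under 0.05 (limma). So did 4119 of all 19938 genes and 2191 of the 5207 genes above a level of 9. Hspa5, the ER Hsp70 that also holds the sensors inactive, had 13.28, 13.33 and 13.34 in WT and 13.31, 13.24 and 13.28 in KO. The groups overlapped, and the difference was -0.04 (interval -0.12 to 0.04, adjusted p = 0.596). Hsp90b1, the ER Hsp90, had 12.42, 12.41 and 12.41 in WT and 12.28, 12.36 and 12.30 in KO, a difference of -0.10 (adjusted p = 0.163). All KO values of Hsp90b1 lay below WT.

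Calnexin and calreticulin are lectin chaperones of glycoproteins. Canx, the membrane-bound calnexin, differed by -0.13 (interval -0.21 to -0.06, adjusted p = 0.0546), just outside the threshold, with 12.80, 12.79 and 12.80 in WT and 12.67, 12.68 and 12.63 in KO. Calr, its soluble relative calreticulin, differed by -0.01 (interval -0.10 to 0.07). The difference between the pair was not tested. Hyou1, a nucleotide exchange factor for BiP, differed by -0.18 (adjusted p = 0.0724), Sdf2l1, part of an ER chaperone complex, by -0.13 (adjusted p = 0.0625) and the J-domain partner Dnajc3 by -0.12 (adjusted p = 0.0770). For each of these the KO values lay below all WT values. The J-domain gene Dnajb11 differed by -0.11, and Dnajb9, a J protein that represses IRE1, by 0.0075 with an interval of -0.14 to 0.16. Manf, a secreted stress-induced protein, was the one chaperone-class gene with every KO value above WT, by 0.11 (adjusted p = 0.204). Creld2, an ER stress gene with disulfide activity, differed by -0.03. The class median of -0.10 was -0.06 after quantile or cyclic loess normalization.

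Disulfide isomerases, which form and rearrange the disulfide bonds of folding proteins, all had differences below 0, and Pdia5 passed the test. Pdia5, reported to act on ATF6, had 10.03, 10.04 and 10.00 in WT and 9.85, 9.76 and 9.86 in KO. It fell by 0.20 (SE 0.04, adjusted p = 0.0315), 1.15-fold, with no overlap. That call was lost in each fit that left out 1 of the 6 arrays (adjusted p = 0.0587 to 0.114) and after quantile or cyclic loess normalization. P4hb, the founding isomerase and a subunit of collagen prolyl 4-hydroxylase, had 12.57, 12.56 and 12.56 in WT and 12.47, 12.44 and 12.46 in KO. Its groups were apart, with a difference of -0.11 (interval -0.18 to -0.04, adjusted p = 0.0819). Pdia6 differed by -0.08, Pdia3, which works with calnexin and calreticulin, by -0.03, and Pdia4 by -0.0092. A dimmer probe set of Pdia4, at a mean of 7.69 against 11.87 for the one used, gave 0.13. Pdia3 and Pdia4 turned positive after quantile or cyclic loess normalization. The class median of -0.08 was -0.03 and -0.04 after these.

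The genes of ER-associated degradation moved in opposite directions: Herpud1 rose, and Edem3, Edem1 and Derl1 fell. Herpud1, a membrane scaffold of the degradation complex and a sensitive stress target, had 11.29, 11.24 and 11.29 in WT and 11.49, 11.47 and 11.49 in KO. It rose by 0.21 (SE 0.03, adjusted p = 0.0131), 1.155-fold, and every KO array was above every WT array. Without WT replicate 3 or KO replicate 3 the adjusted p was 0.0705 and 0.0525. Herpud1 is the carrier of the ERSE-II element printed above, while Dnajb11, the other carrier, differed by -0.11. The 9 genes with an exact ERSE had a median of -0.04 (from -0.13 to 0.09), and none of the 9 passed the test. The 21 genes with a window and neither element had a median of -0.05, with 1 higher and 4 lower. Among all genes 3.34% were called higher and 3.97% lower, and 7.11% and 9.91% among those above a level of 9. The difference between these groups was not tested. No match says only that these letters are not in that window.

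Edem3 had the largest of the 3 falls in this class. The EDEM proteins trim mannose from misfolded glycoproteins and so mark them for removal. Edem3 had 10.04, 9.94 and 10.03 in WT and 9.68, 9.69 and 9.69 in KO, a fall of 0.32 (SE 0.04, adjusted p = 0.00692), 1.24-fold, which was lost without WT replicate 3 (adjusted p = 0.0537). Edem1 had 10.62, 10.61 and 10.61 in WT and 10.45, 10.48 and 10.42 in KO. It fell by 0.16 (SE 0.03, adjusted p = 0.0316), a call that held without KO replicate 2 (adjusted p = 0.0493) and was lost without each of the other arrays (adjusted p = 0.0727 to 0.129) and after each change of scaling. Edem2, the first trimming step, differed in the other direction by 0.09 (interval 0.01 to 0.17, adjusted p = 0.181), with 10.01, 10.03 and 9.97 in WT and 10.12, 10.07 and 10.11 in KO. The KO values of Edem2 lay above WT and those of its relatives below. The intervals of Edem2 and Edem3 lie on opposite sides of 0, and the difference between them was not tested.

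Derlins form part of the channel through which misfolded proteins leave the ER. Derl1 had 11.66, 11.68 and 11.68 in WT and 11.55, 11.53 and 11.53 in KO, and fell by 0.13 (SE 0.03, adjusted p = 0.0444). The groups were well apart, yet the call was lost in every fit that left out 1 array (adjusted p = 0.0726 to 0.175) and after each change of scaling. Derl2 differed by 0.03 and Derl3 by 0.08, both with overlapping groups. Syvn1, the ubiquitin ligase HRD1 at the core of the complex, had 9.78, 9.76 and 9.72 in WT and 9.86, 9.83 and 9.87 in KO, a difference of 0.09 (adjusted p = 0.162). Its partner Sel1l had 10.16, 10.15 and 10.19 in WT and 10.10 in each KO array, a difference of -0.06 (adjusted p = 0.299). In all, 1 of the 9 rose (11.1%) and 3 fell (33.3%). The shares called were 3.34% and 3.97% among all genes and 7.11% and 9.91% among those above a level of 9. The class median of 0.03 had no stable sign. It was -0.04 without WT replicate 2, 0.0013 without KO replicate 2, 0.05 without WT replicate 3, 0.05 after cyclic loess and -0.02 with array weights.

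**Figure D3:**
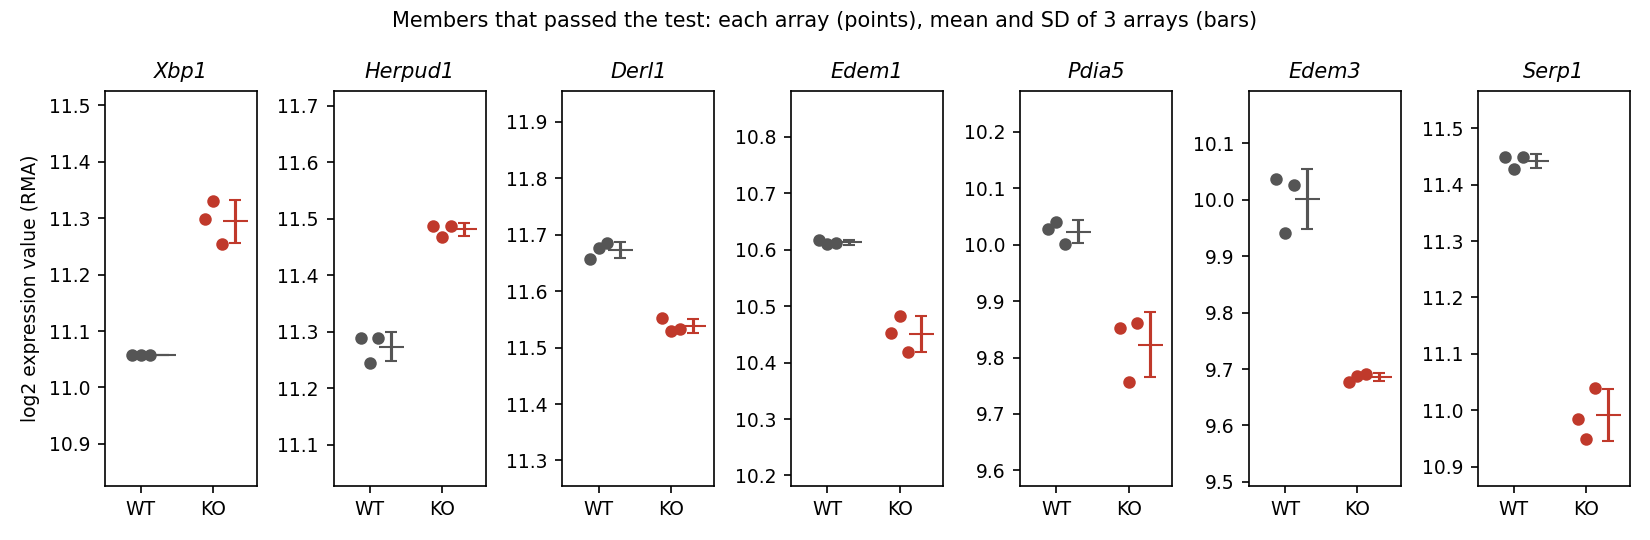
Log2 expression values of the 7 genes that passed the test, with each array as a point and the mean and SD of 3 arrays beside them; every panel spans the same height. Xbp1 and Herpud1 lie higher in KO, the other 5 lie lower, and no panel shows an overlap.

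Serp1, of the translocation and export class, had the largest difference of the 38 genes. Serp1 encodes a small membrane protein of the translocation channel that stabilises membrane proteins under ER stress. Its values were 11.45, 11.43 and 11.45 in WT and 10.98, 10.95 and 11.04 in KO. It fell by 0.45 (SE 0.04, 95% confidence interval -0.54 to -0.37, adjusted p = 0.00275), 1.37-fold. The call held in all 14 alternative fits, with adjusted p-values of 9.85e-05 to 0.0488 and differences of -0.48 to -0.41.

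The other genes of that class were not called. Sec61a1, the pore-forming subunit of the channel, had 12.21, 12.26 and 12.22 in WT and 12.20, 12.14 and 12.18 in KO, a difference of -0.06 (interval -0.13 to 0.02, adjusted p = 0.420). Its partner Sec61b differed by -0.17 (adjusted p = 0.124), and the other 2 of its 3 probe sets gave -0.14 and -0.26. The translocon-associated subunit Ssr1 differed by -0.04 with overlapping groups. Of the coat proteins of export vesicles (COPII), Sec23b differed by -0.21 (interval -0.35 to -0.07, adjusted p = 0.0901) and Sec24d by 0.05 (adjusted p = 0.451). Values of Sec23b spread more in KO, with 9.49, 9.71 and 9.64, than in WT, with 9.84, 9.80 and 9.83. The class median was -0.11.

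Other genes of the same pathway were counted from a list of 121, of which 114 were measured. Among them 2 rose (1.75%), 21 fell (18.4%) and 91 missed the threshold, with a median of -0.08. The shares called were 3.34% and 3.97% of all genes and 7.11% and 9.91% of those above a level of 9. Differences were below 0 for 93 of the 114 (81.6%), beside 47.6% and 61.3%. After quantile normalization 79 were below 0, with a median of -0.05, and after cyclic loess 80, with a median of -0.06. Of the 23 calls, Sec23a alone held when WT replicate 3 was left out, 3 held when WT replicate 1 was, 8 when KO replicate 3 was and 10 for each of the other arrays. Over the other settings, 3 of the 114 were called higher and 12 lower after quantile normalization (4.32% and 3.2% of all genes). Cyclic loess gave 3 and 14 (4.31% and 3.35%), and a common median 1 and 12 (3% and 2.89%). The counts were 3 and 37 among genes above background (7.37% and 9.37% of all genes tested there). They were 3 and 35 with a trended robust variance (4.87% and 6.55%) and 5 and 39 with array weights (8.04% and 9.1%).

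The PERK arm, which acts through translation and ATF4, was mixed. Of 9 measured genes 1 rose and 1 fell (11.1% each, beside 3.34% and 3.97% of all genes), with a median of 0.07. The shares called among genes above a level of 9 were 7.11% and 9.91%. Ddit3, the stress factor CHOP, rose by 0.15 (adjusted p = 0.0418) and Ppp1r15a, which restarts translation by removing the PERK phosphate, fell by 0.19 (adjusted p = 0.0362). The call of Ddit3 was lost in each fit that left out 1 of the 6 arrays (adjusted p = 0.0810 to 0.123). That of Ppp1r15a was lost without every array but KO replicate 2 (adjusted p = 0.0718 to 0.151). Both calls were also lost with a common median. The sensor gene Eif2ak3 differed by 0.09 (adjusted p = 0.195) and Atf4, named after its value was seen, by 0.01 (adjusted p = 0.867). Mbtps1, the Golgi protease that first cuts ATF6, differed by -0.12 (adjusted p = 0.0998).

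Of 16 oxidative folding enzymes outside the list 1 rose (6.25%) and 6 fell (37.5%), with a median of -0.18. The shares called were 3.34% and 3.97% among all genes and 7.11% and 9.91% among those above a level of 9. The oxidase paralogs that recharge the isomerases parted: Ero1a, also induced by low oxygen, rose by 0.27 (SE 0.03, adjusted p = 0.00702) and Ero1b fell by 0.25 (SE 0.03, adjusted p = 0.0110). Levels of Ero1a were 12.14 ± 0.0055 in WT and 12.41 ± 0.03 in KO, and those of Ero1b 7.66 ± 0.01 and 7.42 ± 0.04 (SD, n = 3 arrays each). Without WT replicate 3 the adjusted p was 0.0537 for Ero1a and 0.0657 for Ero1b, and the call of Ero1b was also lost without WT replicate 1. The difference between the paralogs was not tested.

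In the 5 remaining lists the lower calls made up 14.3% to 19.0% of the genes, beside 3.97% of all genes and 9.91% of those above a level of 9. Of 21 other folding genes 3 fell and none rose. Fkbp9, a prolyl isomerase, fell by 0.34 (SE 0.04, adjusted p = 0.00707; without WT replicate 3, 0.0537). Of 21 other translocation genes 4 fell, among them Ssr2 and Ssr3, companions of Ssr1, by 0.20 and 0.19 (adjusted p = 0.0141 and 0.0149). Both calls needed WT replicate 1, WT replicate 3 and KO replicate 3, and leaving out any of these gave adjusted p-values of 0.0518 to 0.0865. All 11 subunits of the oligosaccharyltransferase, which attaches N-linked sugars, had differences below 0, and 2 passed. The larger of the pair was Rpn2, which fell by 0.20 (adjusted p = 0.0189), a call kept without KO replicate 3 (adjusted p = 0.0380) and lost without each other array (adjusted p = 0.0532 to 0.0885) and after quantile normalization. Of 13 other COPII genes 2 fell. Sec23a, the paralog of Sec23b, fell from 10.72 ± 0.0009 to 10.38 ± 0.03 (SD, n = 3 arrays each), by 0.33 (SE 0.03, adjusted p = 0.00386), and passed without any 1 of the 6 arrays. Of 19 other degradation genes 3 fell and none rose, with a median of -0.07.

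**Figure D4:**
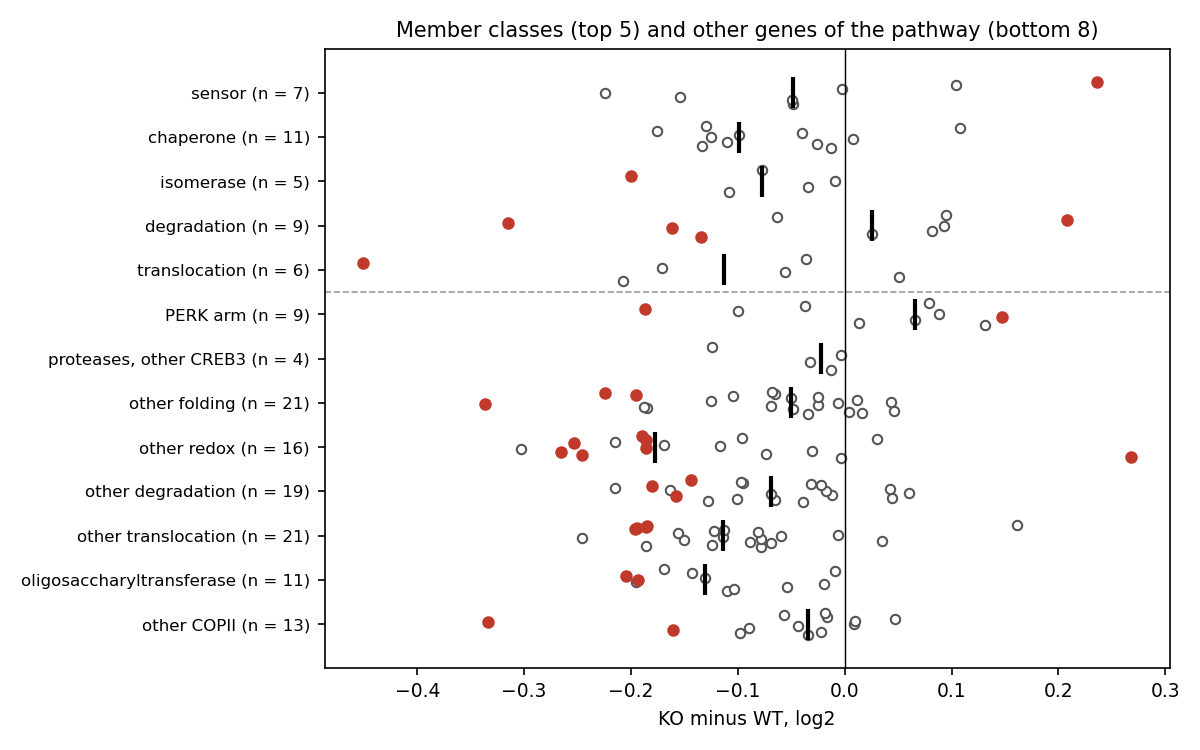
KO minus WT on the log2 scale for each gene of the 5 classes (above the dashed line) and of the 8 further pathway lists (below it); filled points passed the test, and the black bar is the median of the row. The oxidative folding row has the lowest median, -0.18, and the PERK arm the highest, 0.07.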

How the data were processed

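Values are log2 expression levels per probe set, as the authors deposited them. The submitters' processing notes name RMA, Partek and Affymetrix Expression Console, and their versions are not stated there. Arrays on a common scale show changes relative to other transcripts only, and median polish can tie values. Of 35556 probe sets, 21789 carry 1 gene symbol in the platform annotation, 1621 several and 12146 none, and the first kind gave 19938 genes after symbols were updated through GRCm38.p6 identifiers. KO was compared with WT by limma 3.58.1 in R 4.3.3 (lmFit, eBayes, two-sided), without covariates, with Benjamini-Hochberg adjustment over all genes and a threshold of 0.05. The fit was tested on simulated data. Alternatives were 6 fits without 1 array, other scalings, a filter, other variance models, array weights, averaged probe sets and a replicate block. The 38 genes, the further pathway lists and the rule for naming genes (all 38, and from each further list up to 3 with the smallest p in each direction) were chosen with earlier results of these data known. Promoter windows came from RefSeq (GRCm38.p6), and Atf6, Creb3l1, Hyou1, Manf, Derl1 and Sec61a1 had none. Arrays give no depth, and their number limits precision.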

Additional observations from a re-analysis of the deposited data

How the results depend on the processing

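The counts of 2 genes called higher and 5 lower depended on the setting. They were 0 and 1 (Serp1, adjusted p = 0.0488) with the replicate number as a block, and 5 and 15 with array weights, where WT replicate 3 weighed 7.41 and the other arrays 0.524 to 1.19. Lower calls numbered 2 after quantile normalization, 2 after cyclic loess, 3 with a common median, 11 among genes above background and 13 with a trended robust variance. Fits without 1 array gave 0 to 2 higher and 1 to 3 lower. The labels do not say whether the replicate numbers pair the cultures. Deviations from the group means correlated at -0.299, -0.262 and -0.015 for same-numbered arrays and at -0.116 to 0.333 for the others. Deviations from a mean of 3 arrays depend on one another, so these values cannot decide whether cultures were paired. The block left 30 genes higher (0.15%) and 22 lower (0.11%) among all genes. Of the 23 calls among the further pathway genes the block kept none, Sec23a, Ero1a and Fkbp9 included.

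Signs of 9 small differences, none of them called as reported, turned in some settings, and the cause was not tested. After quantile normalization the values were 0.023 for Creb3l2, 0.0329 for Calr, 0.0148 for Creld2, 0.0135 for Pdia3, 0.0347 for Pdia4 and 0.015 for Ssr1. After cyclic loess they were 0.0342 for Creb3l2, 0.0025 for Hspa5, 0.0283 for Calr, 0.0115 for Creld2, 0.0058 for Pdia3, 0.0298 for Pdia4 and 0.0023 for Ssr1. With array weights they were 0.0236 for Calr, -0.0209 for Dnajb9 and -0.0226 for Derl2. Creb3l2 was 0.0033 with a common median, and Pdia4 was 0.0616 with averaged probe sets. Fits without 1 array spanned -0.0234 to 0.0152 for Creb3l2, -0.0321 to 0.0028 for Calr, -0.048 to 0.05 for Dnajb9, -0.0434 to 0.0041 for Creld2, -0.035 to 0.0053 for Pdia4 and -0.0415 to 0.0626 for Derl2.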
